A study of Homo sapiens with 8 samples.

Results

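The miR-125 family was followed across 8 small RNA libraries of the human cell line 786O. Its members were taken by name, as both arms of the hairpins miR-125a, miR-125b-1 and miR-125b-2, which gave 5 of the 3112 miRNAs in the count table: hsa-miR-125a-5p, hsa-miR-125a-3p, hsa-miR-125b-5p, hsa-miR-125b-1-3p and hsa-miR-125b-2-3p (written below without the species prefix). The family was chosen by its measured levels in these same groups, whose comparison was already known, so its values between the groups are given as a description and carry no test.

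786O is an established line derived from a clear cell renal cell carcinoma. Of the 8 libraries, 4 came from cells that carried a short hairpin RNA against circSOD2 (circSOD2-sh), a circular RNA made of exons of the superoxide dismutase gene SOD2, and 4 came from cells that carried a negative control plasmid (NC). The labels describe plasmid transfection with Lipofectamine 3000 and harvest 48 h later, whereas the methods of the study describe lentivirus and selection with puromycin, and neither says which hairpin sequence was used. No source says that the 4 libraries of a group came from separate cultures, so the p-values below measure only the spread between libraries, which may be technical. The comparison asked which miRNAs differed in level when circSOD2 was targeted. The level of circSOD2 itself cannot be read in small RNA libraries and was not analysed here.

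A miRNA is cut from a hairpin precursor, which has a 5p and a 3p arm, and in most hairpins one arm is loaded into Argonaute as the guide while the other is degraded. The guide recognises messenger RNAs mainly through its seed, bases 2 to 8 from the 5′ end. The miR-125 family is the mammalian counterpart of lin-4 of the nematode and is conserved together with miR-99/100 and let-7 in shared transcripts. It is best known for roles in blood cell formation, differentiation and cancer, with the 5p arm as the guide. Below, guide and passenger name the 5p and 3p arms by that convention, not by which arm was larger in these libraries.

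The mature sequences, from RefSeq on GRCh38.p14, are shown with the seed in capitals because the family divides into arms that share a seed and arms that do not.
miR-125a-5p: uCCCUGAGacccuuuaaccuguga
miR-125b-5p: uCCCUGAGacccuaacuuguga
miR-125a-3p: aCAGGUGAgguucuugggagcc
miR-125b-1-3p: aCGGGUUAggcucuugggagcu
miR-125b-2-3p: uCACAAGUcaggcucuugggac

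Both 5p arms carried the seed CCCUGAG and were identical over their first 13 bases. The 3p arms had 3 different seeds. miR-125a-3p and miR-125b-1-3p matched at 18 of 22 positions, and miR-125b-1-3p and miR-125b-2-3p shared a run of 12 bases. The other human miRNA with the seed CCCUGAG in the RefSeq table was miR-4319, which had no entry in the count table. No further human miRNA in that table had the seed of any of the 3p arms.

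The hairpins MIR125A and MIR125B1 are shown with both mature arms in capitals, to place the arms whose balance is described below.
MIR125A: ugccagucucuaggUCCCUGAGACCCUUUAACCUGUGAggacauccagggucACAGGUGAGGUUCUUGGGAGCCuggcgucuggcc
MIR125B1: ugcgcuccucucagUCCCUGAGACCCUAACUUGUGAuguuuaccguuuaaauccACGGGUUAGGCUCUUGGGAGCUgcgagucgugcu

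MIR125A lay at chr19:51693254-51693339 on the plus strand of GRCh38, inside an intron of SPACA6 and over an exon of SPACA6P-AS on the opposite strand (GENCODE 29). MIR125B1 lay at chr11:122099757-122099844 on the minus strand, inside an intron of the noncoding transcript MIR100HG. The hairpin MIR125B2 lay at chr21:16590237-16590325 on the plus strand, inside an intron of the noncoding transcript MIR99AHG. miR-125b-5p is made by both MIR125B1 and MIR125B2, so its reads cannot be assigned to either, whereas miR-125b-1-3p and miR-125b-2-3p each belong to a single hairpin.

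The libraries differed in make-up between the groups. Total counts ranged from 6386872 to 9245044 in NC and from 3743860 to 4208276 in circSOD2-sh, while counts of known miRNAs, those with a database name, ranged from 2344870 to 3573638 in NC and from 3604691 to 4059249 in circSOD2-sh. The remainder fell on miRNAs predicted by the authors. Levels are therefore given as normalized CPM, counts scaled to a common library size (counts per 1e6), adjusted by the trimmed mean of M-values (TMM), which sets the bulk of miRNAs equal between libraries. Scaling by library totals instead moved the median log2 fold change of all miRNAs tested from -0.00 to 0.96. The cause of the different make-up was not tested.

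A pair of libraries stood apart from the rest of their groups. In NC replicate 4, all 4 miRNAs of the smooth muscle and fibroblast list (both arms of miR-143 and miR-145) were at their highest of the group, with a summed level of 557.4 normalized CPM where NC replicates 1 to 3 had 7.39 to 8.70. In circSOD2-sh replicate 2, the 5 miRNAs of the neural list summed to 5238 normalized CPM against 476 to 494, and miR-124-3p, the defining neural miRNA, was at 3217 against 1.87 to 3.01. The smooth muscle and fibroblast list was also higher in circSOD2-sh replicate 2, at 227.8 against 8.00 to 13.4. The 4 kidney tubule miRNAs, the tissue of origin of 786O, summed to 376 to 399 normalized CPM in NC replicates 1 to 3, to 1065 in NC replicate 4 and to 300.3 to 349 in circSOD2-sh. The 4 erythroid miRNAs summed to 170.8 in NC replicate 4, above the 26.8 to 42.6 of NC replicates 1 to 3. miR-204-5p of the kidney tubule list was at 0 in NC replicates 2 and 3.

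Of the 3112 miRNAs, 895 passed the filter on low counts, and all 5 members were among them. By edgeR's quasi-likelihood test at a Benjamini-Hochberg adjusted p of 0.05, 65.7% of the miRNAs tested were called, 33.3% higher and 32.4% lower in circSOD2-sh. Among the 463 known miRNAs tested, 55.5% were called, 27% higher and 28.5% lower. All 5 members were called, 2 higher (both 5p arms) and 3 lower (the 3p arms). The ranges of the groups did not overlap for any of the 5, which was so for 60.3% of the miRNAs tested. The median log2 fold change of the members was -0.36, against -0.00 over all miRNAs tested and -0.11 over the known ones. Because the family was chosen with these values known, nothing is read from these counts.

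miR-125b-5p, a guide strand with the family's shared seed, was at a low level in most NC libraries and among the most abundant miRNAs in circSOD2-sh. Its counts were 73, 64, 64 and 449 in NC replicates 1 to 4 and 67728, 78603, 64125 and 71156 in circSOD2-sh replicates 1 to 4. These corresponded to 11.2, 9.85, 10.9 and 100.9 normalized CPM in NC and to 11511, 13878, 12868 and 12656 in circSOD2-sh. Every circSOD2-sh library was far above every NC library, and NC replicate 4 alone stood above its group.

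NC libraries averaged 33.2 ± 45.1 normalized CPM of miR-125b-5p (SD, n = 4) and circSOD2-sh libraries 12728 ± 971 (n = 4), a log2 fold change of 8.60 (SE 0.95). The size depended on NC replicate 4, which was 9.47 times the mean of the other NC libraries. Without that library the NC mean was 10.7 ± 0.709 (n = 3) and the log2 fold change was 10.17 (SE 0.14). Without both libraries that stood apart it was 10.07. The excess of miR-125b-5p in NC replicate 4 went together with an excess of the smooth muscle and fibroblast miRNAs there. The kidney tubule, erythroid and leukocyte sums were also higher in that library. The part of any of these in the miR-125b-5p level was not tested. In circSOD2-sh, replicate 2 with its neural miRNAs was the highest at 13878, and the other 3 libraries reached 11511 to 12868.

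miR-125a-5p, the paralog guide with the same seed, was already abundant in NC and was higher in circSOD2-sh. Its counts were 10452, 11466, 11348 and 7032 in NC and 41702, 36793, 40606 and 42333 in circSOD2-sh. In normalized CPM it measured 1603, 1765, 1935 and 1580 in NC and 7088, 6496, 8148 and 7530 in circSOD2-sh. The lowest circSOD2-sh library was above every NC library. NC replicate 4 and circSOD2-sh replicate 2 were each the lowest of their group.

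For miR-125a-5p the averages were 1721 ± 165 normalized CPM in NC (SD, n = 4) and 7315 ± 698 in circSOD2-sh, a log2 fold change of 2.09 (SE 0.098). This was smaller than that of miR-125b-5p on the same scale, 8.60. Both 5p arms had a higher level in circSOD2-sh under all 17 alternative settings.

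miR-125b-1-3p, by convention the passenger arm of MIR125B1, was lower in circSOD2-sh. It had counts of 9561, 9370, 8552 and 6546 in NC and of 3800, 3696, 3623 and 3780 in circSOD2-sh, or 1467, 1443, 1458 and 1471 normalized CPM against 646, 653, 727 and 672. The NC libraries were within a narrow band, and the mean was 1460 ± 12.6 (SD, n = 4) against 674 ± 36.8, a log2 fold change of -1.11 (SE 0.068). This arm was thus abundant in NC, where the 5p arm of the same hairpin was scarce, and no library of either group stood apart for it.

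miR-125b-2-3p, by convention the passenger arm of MIR125B2, had the smallest difference of the family. Its counts were 1948, 2058, 2010 and 1432 in NC and 1504, 1428, 1244 and 1344 in circSOD2-sh, or 299, 317, 343 and 322 normalized CPM against 256, 252, 249.6 and 239. The means were 320 ± 18.1 (SD, n = 4) and 249 ± 7.14, a log2 fold change of -0.36 (SE 0.079), and the direction reversed to 0.61 when library totals were used for scaling. Relative to the median of all miRNAs tested it was -0.36 under library totals. Subtracting that median removes a shift common to all miRNAs, so a value near that under TMM was fixed in advance.

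miR-125a-3p, the passenger arm of MIR125A, was the scarcest member in circSOD2-sh. Its counts were 303, 325, 282 and 227 in NC and 111, 171, 105 and 130 in circSOD2-sh, or 46.5, 50.03, 48.1 and 51.02 normalized CPM against 18.9, 30.2, 21.1 and 23.1. The group ranges were apart, with circSOD2-sh replicate 2, the library with the neural miRNAs, highest in its group. The mean was 48.9 ± 2.03 (SD, n = 4) in NC and 23.3 ± 4.90 in circSOD2-sh, a log2 fold change of -1.07 (SE 0.16). Without both libraries that stood apart, the log2 fold change was -1.30.

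The 3 passenger arms had a lower level in circSOD2-sh under all 16 alternative settings other than library totals, in 48 of 48 values. With library totals miR-125a-3p was at -0.10, miR-125b-1-3p at -0.15 and miR-125b-2-3p at 0.61 on the log2 scale. Set against the median of all miRNAs tested under that scaling, the values were -1.07, -1.11 and -0.36. These come close to the TMM values by construction and give no separate support for a lower level. In bulk RNA a lower level cannot be split into fewer cells that made the miRNA and less of it per cell.

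**Figure D1:**
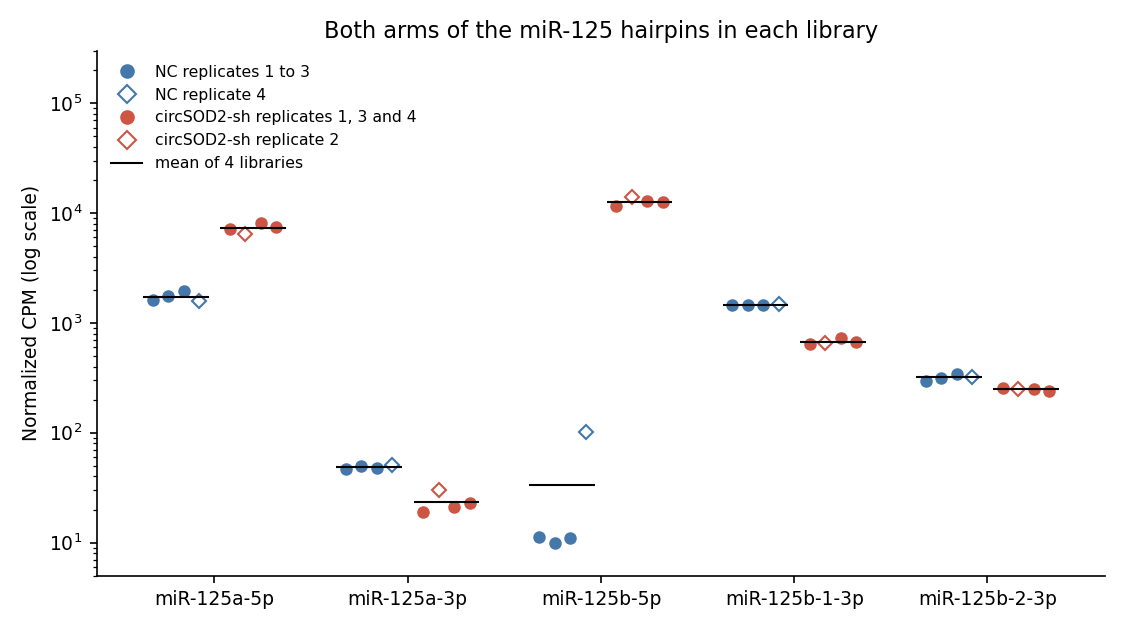
Normalized CPM of the 5 miR-125 members (log axis) in the 4 NC and 4 circSOD2-sh libraries, each point a library, with the group mean marked. Both 5p arms sat higher in circSOD2-sh and the 3p arms lower under TMM scaling (with library totals miR-125b-2-3p turned to a log2 fold change of 0.61), and NC replicate 4 stood alone for miR-125b-5p at 100.9.

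The order of the members by level differed between the groups. In NC, miR-125a-5p led and was 1.07 to 1.33 times miR-125b-1-3p within a library, miR-125b-1-3p was 4.25 to 4.91 times miR-125b-2-3p, and miR-125b-2-3p was 6.31 to 7.13 times miR-125a-3p. miR-125b-5p came last in 3 of 4 NC libraries and was above miR-125a-3p in NC replicate 4, so these neighbours overlapped. The other neighbours in NC had ranges that were apart.

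In circSOD2-sh, miR-125b-5p led and was 1.58 to 2.14 times miR-125a-5p within a library. miR-125a-5p was 9.95 to 11.2 times miR-125b-1-3p, which was 2.53 to 2.91 times miR-125b-2-3p, and miR-125b-2-3p was 8.35 to 13.5 times miR-125a-3p. All neighbouring ranges were apart. Levels of different miRNAs compare only roughly, since ligation to adapters depends on sequence, although the members are all 22 or 24 bases long.

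Placed among the 463 known miRNAs tested, with 1 the most abundant, miR-125b-5p moved from rank 188 by the NC mean to rank 10 by the circSOD2-sh mean, and its NC rank was 260 without NC replicate 4. miR-125a-5p went from 39 to 20. The passenger arms went the other way, miR-125b-1-3p from 42 to 63, miR-125b-2-3p from 82 to 99 and miR-125a-3p from 160 to 216. The highest rank within the family thus passed from miR-125a-5p to miR-125b-5p.

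The family as a whole took 0.652 to 0.669% of known miRNA counts in the NC libraries and 2.97 to 3.16% in the circSOD2-sh libraries. Within the family, the 5p arms with the shared seed made up 48.9 ± 1.89% of counts in NC (SD, n = 4) and 95.5 ± 0.147% in circSOD2-sh (n = 4). miR-125b-5p went from 0.938 ± 1.28% to 60.6 ± 3.07% of family counts, and its NC share was 0.275 to 0.327% in replicates 1 to 3 and 2.86% in replicate 4. Without NC replicate 4 the NC mean was 0.296 ± 0.0271% (n = 3). miR-125a-5p had 48.0 ± 2.71% and 34.9 ± 2.97%, a smaller share in circSOD2-sh despite its higher level.

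The passenger arms held the remainder. miR-125b-1-3p went from 40.8 ± 1.90% of family counts in NC to 3.21 ± 0.117% in circSOD2-sh. miR-125b-2-3p went from 8.93 ± 0.184% to 1.19 ± 0.0834%. miR-125a-3p went from 1.37 ± 0.0761% to 0.111 ± 0.0215%. In NC about equal parts of the family's reads thus carried the seed CCCUGAG and the 3p seeds, and in circSOD2-sh nearly all carried CCCUGAG.

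**Figure D2:**
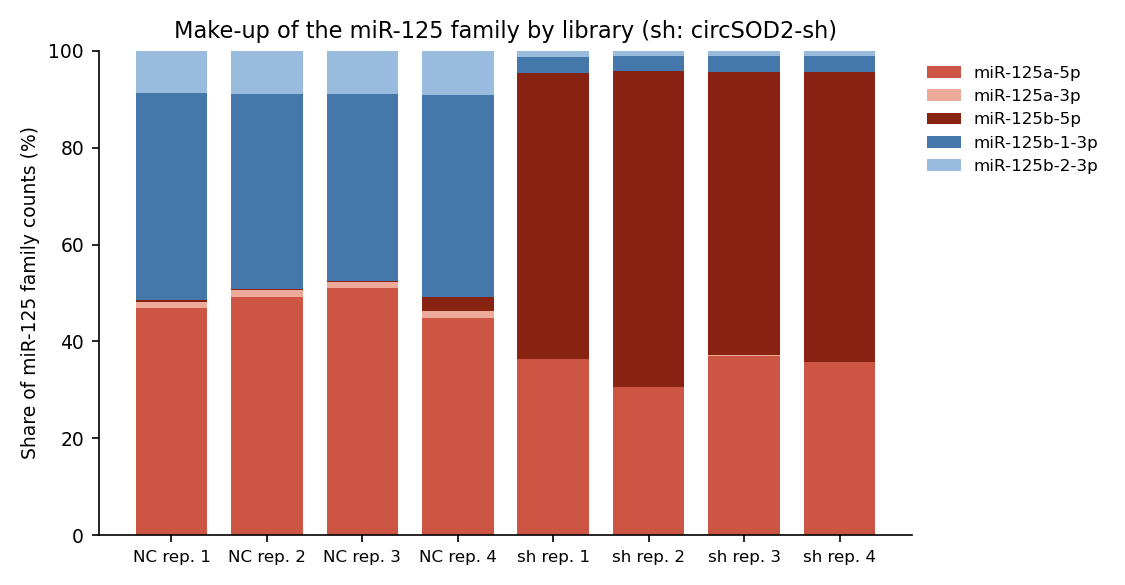
Share of the counts of the 5 miR-125 members (percent, vertical axis) that each member took in every library (horizontal axis). The 5p arms together took 48.9% on average in NC and 95.5% in circSOD2-sh, with miR-125b-5p alone at 60.6% in circSOD2-sh.

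Ratios between members of a library do not depend on how libraries are scaled. The make-up of the libraries still differed between the groups, and its part in the ratios was not tested. It cannot be told apart from that of targeting circSOD2. The ratios were taken as log2 of the counts, with 0.5 added to each side. For MIR125A, the ratio of miR-125a-5p to miR-125a-3p was 31.0 to 40.2 in the NC libraries and 215 to 387 in the circSOD2-sh libraries. On the log2 scale it was 5.13 ± 0.155 (SD, n = 4) and 8.31 ± 0.389, a difference of 3.17. The guide was the larger arm in every library of both groups.

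For miR-125b the ratios set the 5p arm, pooled over MIR125B1 and MIR125B2, against the 3p arm of each hairpin. The ratio of miR-125b-5p to miR-125b-1-3p was 0.00683 to 0.0686 in NC and 17.7 to 21.3 in circSOD2-sh, and the mean log2 ratio was -6.28 ± 1.61 (SD, n = 4) and 4.24 ± 0.123, a difference of 10.52. The ratio of miR-125b-5p to miR-125b-2-3p was 0.0311 to 0.314 in NC and 45.0 to 55.0 in circSOD2-sh, and its log2 mean was -4.09 ± 1.62 and 5.67 ± 0.126, a difference of 9.76. In NC either 3p arm exceeded even the pooled 5p arm in every library. In circSOD2-sh the pooled 5p arm exceeded either 3p arm in every library, which does not show the larger arm of a single hairpin. NC replicate 4 gave the highest ratio among the NC libraries in each case, and without it the differences were 11.32 and 10.57.

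The paralog guides were compared in the same way. The ratio of miR-125b-5p to miR-125a-5p was 0.00558 to 0.0639 in NC and 1.58 to 2.14 in circSOD2-sh, a log2 mean of -6.51 ± 1.70 (SD, n = 4) and 0.80 ± 0.200 and a difference of 7.31, or 8.16 without NC replicate 4. The passenger arms of the miR-125b hairpins kept closer to each other, and miR-125b-1-3p was 4.25 to 4.91 times miR-125b-2-3p in NC and 2.53 to 2.91 times in circSOD2-sh. That log2 ratio was 2.19 ± 0.0842 and 1.44 ± 0.0970, a difference of -0.755.

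**Figure D3:**
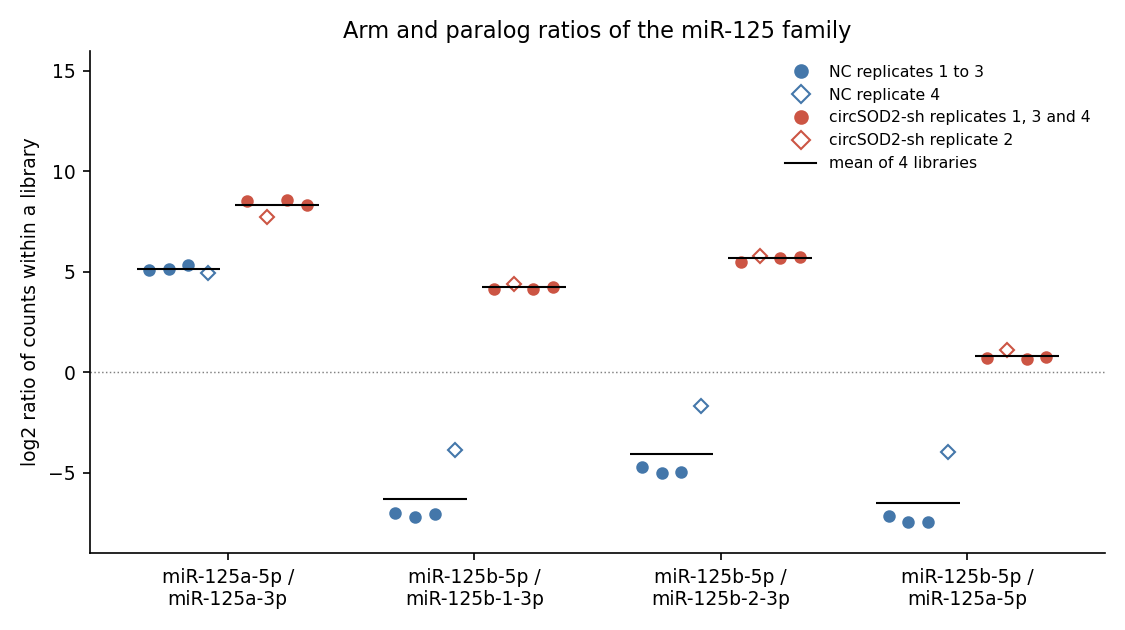
Log2 ratios of counts within a library between members of the miR-125 family (vertical axis), each point a library of NC or circSOD2-sh. The ratio of miR-125b-5p to either 3p arm was below 0 in every NC library and above 0 in every circSOD2-sh library.

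The arm ratios of other hairpins give the background. Matching arms by name gave 131 pairs in which both passed the filter. By this rule a 5p arm shared between hairpins could enter several pairs. A 5p arm numbered by hairpin was not matched to a shared 3p arm, so the list does not hold every hairpin. The difference in log2 5p to 3p ratio between circSOD2-sh and NC had a median of -0.006 and quartiles of -0.814 and 0.612 over these pairs. The miR-125b 5p arm was again pooled over its hairpins and entered both of its pairs. The miR-125 pairs took places 1, 2 and 10 in order of the difference toward the 5p arm. A difference of more than 2 toward the 5p arm was seen in 10.7% of pairs, and in 11 of the other 128 pairs, while 22 of those moved by more than 2 toward the 3p arm. A larger 3p arm by the NC mean and a larger 5p arm by the circSOD2-sh mean was seen in 3.82% of pairs, which were 5 pairs, 2 of them miR-125b. A called higher 5p arm with a called lower 3p arm was seen in 9.92% of pairs, which were 13 pairs, 3 of them miR-125.

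The miR-125 hairpins lie downstream of miR-99/100 and let-7 hairpins in the same orientation. MIR99B, MIRLET7E and MIR125A sat close together on chromosome 19, with 104 and 389 bases between neighbours. MIR100 and MIRLET7A2 on chromosome 11 were 5.6 kb apart, with MIR125B1 a further 46.7 kb downstream. MIR99A and MIRLET7C on chromosome 21 were 0.7 kb apart, with MIR125B2 a further 50.3 kb downstream. The 12 mature arms of these neighbours were listed by position and not by their values, and all 12 passed the filter.

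Of the 12 cluster neighbours, 6 rose and 2 fell in circSOD2-sh by edgeR's quasi-likelihood test, adjusted over all miRNAs tested, beside the 33.3% and 32.4% of all miRNAs tested. These directions depended on scaling, since with library totals all 12 were called higher and with totals of known miRNAs, a scaling added after seeing the data, 5 were called higher and 5 lower. The median log2 fold change of the neighbours was 0.32 under TMM scaling. By arm, 3 of 6 5p arms rose and 2 fell, and 3 of 6 3p arms rose and none fell, with 3 not called.

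The miR-99/100 guides, which share a seed of their own and are known to target components of mTOR signalling, all rose. miR-100-5p, the neighbour of miR-125b-1, rose from 18691 ± 527 normalized CPM (SD, n = 4) in NC to 129383 ± 7296 in circSOD2-sh, a log2 fold change of 2.79 (SE 0.065, edgeR adjusted p = 4.50e-10). miR-99a-5p, the neighbour of miR-125b-2, rose from 2156 ± 222 to 6736 ± 1060, a log2 fold change of 1.64 (SE 0.12, adjusted p = 9.36e-07). miR-99b-5p, the neighbour of miR-125a, rose by 0.80 on the log2 scale (SE 0.065, adjusted p = 2.15e-06). The sequences of miR-99a-5p and miR-100-5p are nearly identical, so how counting split reads between them is uncertain.

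The 3p arms of those hairpins were not called. The log2 fold changes were -0.06 for miR-99b-3p (edgeR adjusted p = 0.596), -0.33 for miR-100-3p (adjusted p = 0.232) and -0.32 for miR-99a-3p (adjusted p = 0.169), and with library totals these were 0.91, 0.64 and 0.65 and all called higher. With totals of known miRNAs they were -0.40, -0.67 and -0.66 and all called lower. The last 2 were scarce, at 3.01 to 7.52 normalized CPM over all 8 libraries.

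The let-7 neighbours, known as differentiation-linked repressors of RAS and HMGA2, were called in the opposite pattern for let-7e and let-7a-2, with the 5p arm lower and the 3p arm higher. let-7e-5p, the neighbour of miR-125a, fell by 0.65 (SE 0.094, edgeR adjusted p = 0.000175) and let-7a-5p, which is also made by hairpins elsewhere, fell by 0.62 (SE 0.085, adjusted p = 0.000113), and with library totals these turned to 0.32 and 0.35, called higher. let-7e-3p rose by 1.54 (SE 0.20, adjusted p = 7.89e-05) and let-7a-2-3p, which belongs to the hairpin beside MIR125B1, rose by 2.18 (SE 0.15, adjusted p = 4.83e-07). The log2 fold changes of the guide and passenger arms of these let-7 hairpins were thus opposite in sign to those of the miR-125 hairpins under TMM scaling. The let-7 guides differ by few bases, so the division of their reads is uncertain.

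The neighbours of miR-125b-2 in the let-7c hairpin were less stable. let-7c-5p was at -0.07 (SE 0.20, edgeR adjusted p = 0.761) and was 372 normalized CPM in circSOD2-sh replicate 2 against 216.3 to 216.5 in the others of that group. Without that library it was called lower, at -0.41, and with library totals higher, at 0.89. let-7c-3p rose by 0.70 (SE 0.25, adjusted p = 0.0319), and this call was lost in 6 of the 8 fits that left out a library, and its adjusted p ranged from 0.000117 to 0.223 over all alternatives.

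**Figure D4:**
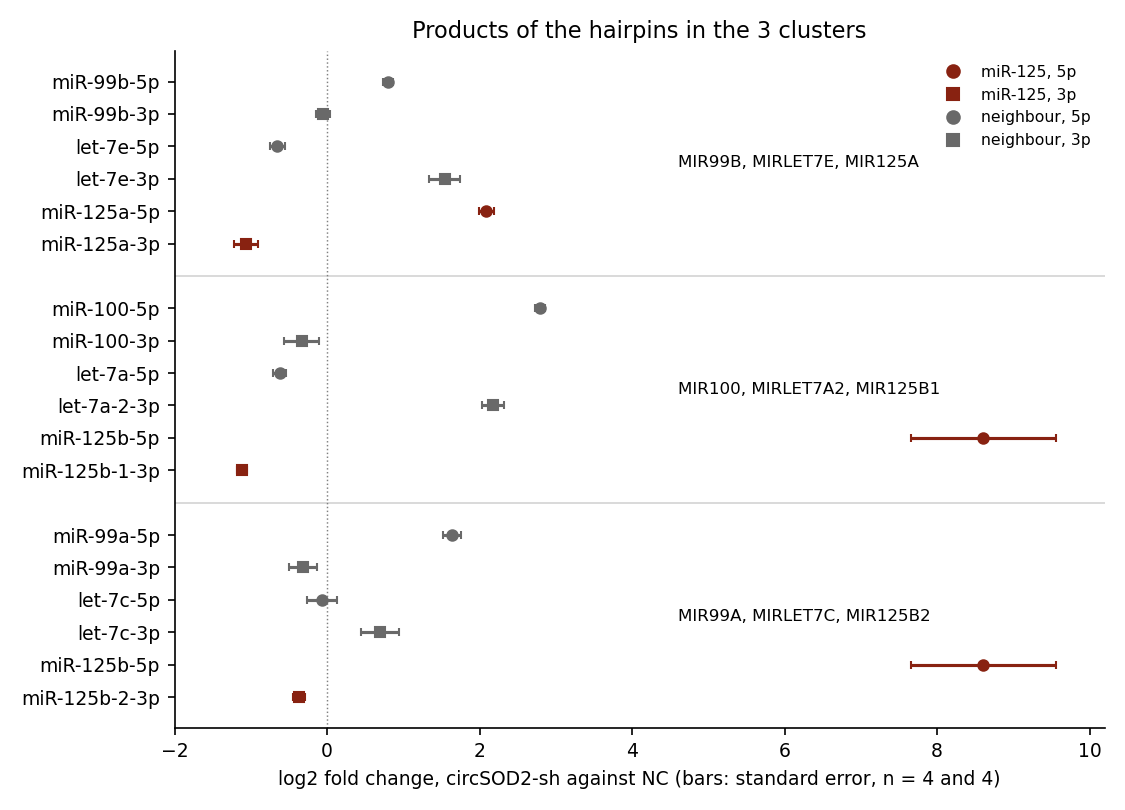
Log2 fold change of circSOD2-sh over NC (edgeR, TMM scaling, error bars SE) for the arms made in each of the 3 clusters that hold a miR-125 hairpin. In each cluster the miR-125 and miR-99/100 5p arms lay above 0, and the let-7a and let-7e 5p arms below 0, which turned to 0.35 and 0.32 with library totals.

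The miRNAs with the profiles most like those of the guides were found among the other 458 known miRNAs tested, as the mean absolute difference of centred log2 (CPM + 1) over the 8 libraries. For miR-125a-5p these were miR-93-3p (0.114), miR-941 (0.114) and let-7a-2-3p (0.128), whose log2 fold changes were 1.99, 2.34 and 2.18. For miR-125b-5p they were miR-106b-3p (1.35), miR-532-3p (1.78) and miR-345-5p (2.04), with log2 fold changes of 7.36, 14.82 and 6.79. The nearest profiles were thus much closer to miR-125a-5p than to miR-125b-5p. miR-532-3p averaged 0.393 normalized CPM in NC, so the size of its fold change rests on the prior count used. miR-345-5p averaged 0.565 in NC, so the size of its fold change also rests on a very low NC level.

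circSOD2 was rebuilt from the reference as the ring of 3 SOD2 exons of 117, 180 and 165 bases, 462 in all, that contains the target sequences of both hairpins given by the study across its junction. The ring was searched for the complements of the members' seeds, which are CTCAGGG for both 5p arms, TCACCTG for miR-125a-3p, TAACCCG for miR-125b-1-3p and ACTTGTG for miR-125b-2-3p. It held 0 of these 7-letter words, and 0 of the 6-letter words that match bases 2 to 7, which are TCAGGG for the 5p arms, CACCTG for miR-125a-3p, AACCCG for miR-125b-1-3p and CTTGTG for miR-125b-2-3p. Among all distinct seeds of miRNAs in the table, 31 of 1073 (2.89%) had a 7-letter match and 100 of 918 (10.9%) a 6-letter match. That these letters are not in this ring says nothing further about binding. The study listed miR-125b-5p among its candidate targets of circSOD2 from this sequencing and kept it after qRT-PCR in HK2 cells. When a circSOD2 probe was used to pull down the candidates kept, the study described miR-532-3p and miR-188-3p as significantly enriched.

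Of the settings, library totals moved the 3p arms and miR-125a-5p furthest, whereas leaving out NC replicate 4 moved miR-125b-5p furthest. Library totals also moved miR-125b-5p, from 8.60 to 9.59. The log2 fold change of miR-125b-5p was between 8.23 and 10.17 when a single library was left out.

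**Figure D5:**
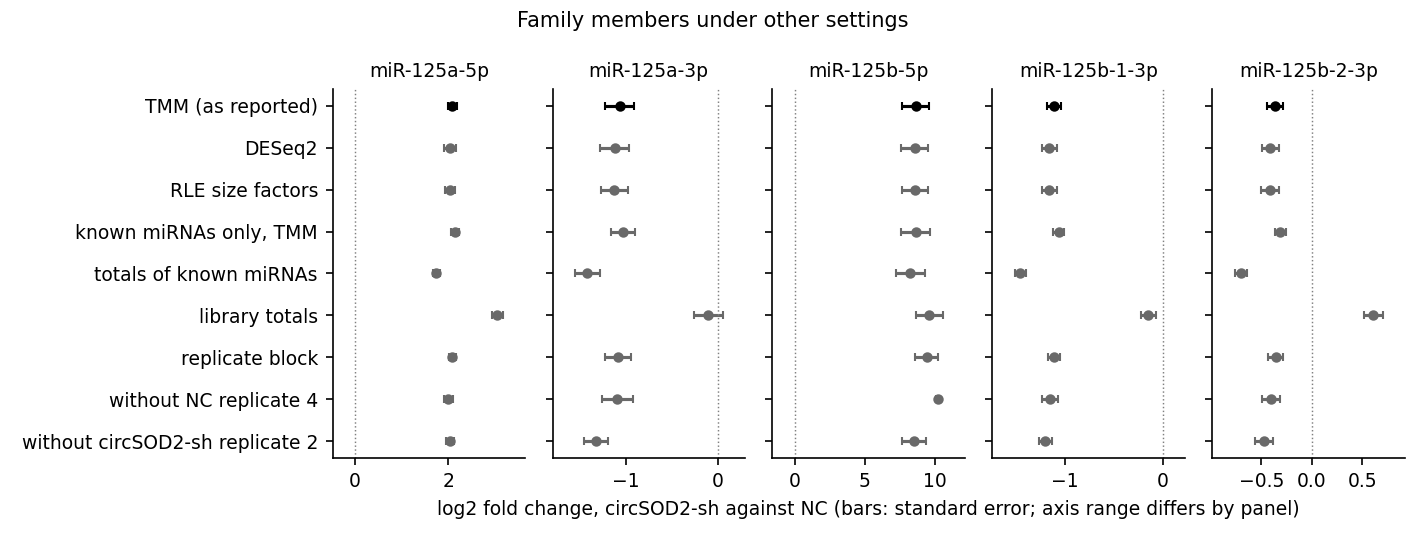
Log2 fold change of each miR-125 member (circSOD2-sh over NC) under the reported processing and a selection of the alternative settings, 1 point for each setting shown. Library totals shifted every member upward and turned miR-125b-2-3p to 0.61, and leaving out NC replicate 4 moved miR-125b-5p to 10.17.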

How the data were processed

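Small RNA libraries of 4 NC and 4 circSOD2-sh samples were read from the deposited table of raw counts per mature miRNA, which the authors made from their reads. The submitters' processing notes name FastQC 0.11.2, Trimmomatic 0.36, Bowtie 1.1.1 and GRCh38; how reads that fit several miRNAs were counted is not given in the sources used here. A deposited table of CPM and a table of the authors' own fold changes and p-values were not used. The members and lists were chosen with earlier results of these data known. Every member, every cluster neighbour that passed the filter, every miRNA with a member's seed, and the 3 known miRNAs with profiles nearest to each guide were named.

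Counts were filtered with filterByExpr (minimum count 10), scaled by TMM and fitted with edgeR 4.0.16 (R 4.3.3) by the quasi-likelihood test, circSOD2-sh against NC over all 8 libraries, with Benjamini-Hochberg adjustment over 895 miRNAs, a threshold of 0.05 and a prior count of 0.125. Fold changes were on the log2 scale. DESeq2 1.42.0, other scalings and filters, a replicate block and left-out libraries were alternatives. Scripts were tested on simulated data. Sequences and positions came from RefSeq and GENCODE 29. Counts come from PCR-amplified reads, which do not each stand for a separate molecule, and the lowest member count, 64, limits the precision of its library.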

Additional observations from a re-analysis of the deposited data

Results flagged for a closer look

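Among 44 groups of 4 libraries examined (the members, the cluster neighbours and the ratios in each condition), 9 held a library whose gap to its nearest neighbour was a larger part of the group's range than Dixon's 95% critical value. Chance flags about 1 in 20 groups, or 2.2 of 44. The groups are not independent, since the ratios reuse the counts of the members and each library enters many groups. The 9 and the 2.2 thus compare only roughly.

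NC replicate 4 was the highest of its group for miR-125b-5p, at 100.9 normalized CPM against 9.85 to 11.2. The ratios that contain miR-125b-5p followed in the same library, with a log2 ratio to miR-125b-1-3p of -3.86 against -7.18 to -7.02, to miR-125b-2-3p of -1.67 against -4.996 to -4.73, and to miR-125a-5p of -3.97 against -7.47 to -7.15. This library also had the high miR-143 and miR-145 levels and higher kidney tubule, erythroid and leukocyte sums. The part of these in the miR-125b-5p value was not tested.

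circSOD2-sh replicate 2 was the highest of its group for let-7e-5p (362 normalized CPM against 289 to 294), miR-99a-5p (8307 against 6031 to 6419) and let-7c-5p (372 against 216.3 to 216.5). It was also the library with high neural miRNAs. Its smooth muscle and fibroblast, erythroid, leukocyte and kidney tubule sums were also above the others of its group. The part of these in the values was not tested. At low levels, let-7e-3p was lowest in NC replicate 3 (2.39 against 3.53 to 3.69) and let-7a-2-3p was lowest in NC replicate 2 (8.01 against 9.20 to 9.38).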

How the results depend on the processing

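Under library totals the log2 fold changes were 3.05 for miR-125a-5p, -0.10 for miR-125a-3p, -0.15 for miR-125b-1-3p and 0.61, reversed, for miR-125b-2-3p. Totals of known miRNAs, an alternative chosen after seeing the data, gave 1.75, -1.42, -1.46 and -0.70 in that order and a median of -0.477 over the known miRNAs tested. Without NC replicate 4 and circSOD2-sh replicate 2, values were -1.30 for miR-125a-3p, 10.07 for miR-125b-5p, -1.20 for miR-125b-1-3p and -0.47 for miR-125b-2-3p. Leaving out single libraries gave 1.88 to 2.10 for miR-125a-5p, -1.32 to -1.09 for miR-125a-3p, 8.23 to 10.17 for miR-125b-5p, -1.30 to -1.16 for miR-125b-1-3p, -0.52 to -0.38 for miR-125b-2-3p, and 537 to 661 called miRNAs.

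Called miRNAs were 588 (298 higher, 290 lower) as reported, 771 with library totals (613 higher, 158 lower), 246 among known miRNAs fitted alone (123 higher, 123 lower) and 328 with totals of known miRNAs (93 higher, 235 lower), the last pair having fewer miRNAs tested. Of the 5 ratios, the 4 that hold a 5p arm were rerun. Leaving out single libraries gave differences of 3.08 to 3.36 for miR-125a-5p to miR-125a-3p and, for miR-125b-5p, 10.22 to 11.32 to miR-125b-1-3p, 9.46 to 10.57 to miR-125b-2-3p and 6.99 to 8.16 to miR-125a-5p, the highest of each miR-125b-5p range being without NC replicate 4.

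With the replicate number as a block, 574 miRNAs were called and the members were at 2.09, -1.09, 9.39, -1.12 and -0.36 in the order miR-125a-5p, miR-125a-3p, miR-125b-5p, miR-125b-1-3p, miR-125b-2-3p. Deviations of samples with the same number correlated at 0.260, -0.0994, 0.0964 and -0.174, and 2 of 4 correlated best with their own number, so the numbers were not taken as pairs. Of the 12 cluster neighbours, 8 were called as reported (6 higher, 2 lower), 7 to 8 when a library was left out, 12 with library totals (12 higher, 0 lower) and 10 with totals of known miRNAs (5 higher, 5 lower). Low counts limited miR-125b-5p in NC most, at 64 to 449 a library.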
